A study of Mus musculus with 4 samples.

Results

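Chemokines are small secreted proteins that direct cell migration, and 8 genes of this family were followed here in the mouse ovary by single-cell RNA sequencing. They were the ligands Cxcl12, Cxcl14, Ccl2, Ccl7, Cxcl1 and Cxcl10 and the receptors Cxcr4 and Ackr3, listed by symbol from the 32285 genes of the deposited matrices, and all 8 were found there. Each of the 4 groups was 1 library, made from a single ovary of each of 5 mice treated at postnatal day 25, before puberty, and pooled before digestion with papain and collagenase. Controls had received PBS or saline; the doxorubicin group had 2 weekly doses of doxorubicin at 3 mg/kg; the doxorubicin+AMH group had the same doxorubicin together with rhAMH, the recombinant human form of anti-Müllerian hormone (AMH), at 0.75 mg/kg; and the AMH group had rhAMH alone at 0.75 mg/kg. Ovaries were taken 4 hours after the second dose of doxorubicin. The strain, the dosing route and the AMH schedule are not given in the sources used here. The study's stated subject is whether AMH shields the ovary from doxorubicin.

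Chemokine ligands are held on the extracellular matrix and read by G protein-coupled receptors on migrating cells. Cxcl12, made by stromal and endothelial cells in many organs, acts through Cxcr4, while Ackr3 binds the same ligand and takes it out of the extracellular space without the usual G protein signal. Ccl2 and Ccl7 attract monocytes, Cxcl1 attracts neutrophils, Cxcl10 is an interferon-induced attractant of T and NK cells, and Cxcl14 is a matrix-associated chemokine of fibroblasts and epithelia. Doxorubicin is a DNA-damaging chemotherapy drug, and AMH is a hormone of granulosa cells that restrains the recruitment of follicles.

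The promoters of these genes were searched for letters of inducible factors. Of the 8 genes, 6 had a promoter in the RefSeq table (build GRCm38.p6), and the 250 bases before the start were scanned for 4 motifs: the NF-kB site, the ISRE (interferon-stimulated response element) and TGANTCA (AP-1) on both strands, and TATAAA on the gene's strand. Cxcl1 and Cxcl10 are shown because their levels went together across cell classes and differed between libraries in several of them, and Cxcl12 is shown beside them as a stromal ligand with ratios near 0 log2 in most stromal clusters. Capitals mark motif matches.
Cxcl1, chr5:90890995-90891244, + strand: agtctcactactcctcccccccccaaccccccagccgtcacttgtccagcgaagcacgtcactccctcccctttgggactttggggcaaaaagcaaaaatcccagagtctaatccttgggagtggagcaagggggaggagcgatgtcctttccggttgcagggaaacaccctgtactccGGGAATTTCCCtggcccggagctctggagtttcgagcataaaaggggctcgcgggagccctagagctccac
Cxcl10, chr5:92348890-92349139, - strand: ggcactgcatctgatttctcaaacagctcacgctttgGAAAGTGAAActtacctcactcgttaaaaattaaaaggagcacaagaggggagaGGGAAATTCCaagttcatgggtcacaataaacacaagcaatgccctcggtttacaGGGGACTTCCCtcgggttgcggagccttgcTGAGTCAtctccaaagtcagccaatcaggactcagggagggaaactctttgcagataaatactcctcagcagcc
Cxcl12, chr6:117168285-117168534, + strand: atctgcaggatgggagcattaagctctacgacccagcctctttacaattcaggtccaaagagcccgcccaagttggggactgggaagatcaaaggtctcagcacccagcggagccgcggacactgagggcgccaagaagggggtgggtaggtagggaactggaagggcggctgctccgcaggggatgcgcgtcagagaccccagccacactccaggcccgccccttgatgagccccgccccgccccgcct

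The Cxcl1 promoter held 2 NF-kB matches, which overlap, their first bases 71 and 70 bases before the start. Cxcl10 held 3 NF-kB matches, at 159, 104 and 103 bases (the last pair overlap), with an ISRE at 213 and an AP-1 match at 74. The Cxcl12 window held none of the 4 motifs. Among the others, Cxcl14 held an ISRE at 172 bases, and Cxcr4 and Ackr3 held a TATAAA at 30 and 8 bases. Of all 32851 promoters of this length in the table, 9.55% held an NF-kB match, 2.98% an ISRE, 6.75% an AP-1 match and 7.59% a TATAAA. These matches describe letters in this window only, and the 3 promoters shown were chosen with the genes' levels known.

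The libraries held 7141 to 9478 deposited cells and 138647495 to 178279122 UMIs (molecular tags, each counting 1 captured transcript). Medians were 9834.5 to 13575 UMIs per deposited cell, and any pair of libraries shared 11 to 24 barcodes, at most 0.281% of the smaller one. Filtering left 7998, 6078, 6593 and 7962 cells for control, then doxorubicin, then doxorubicin+AMH, then AMH, which is the order of all values below. Clustering without the chemokine genes gave 33 clusters, of which 30 matched marker lists of 12 classes, written with "-like". The stroma-like class held 3057, 2202, 2211 and 2218 cells, and its 9 markers (among them Dcn, Pdgfra and Col1a1) summed to 9679, 9268, 7617 and 9048 CPM. CPM is UMIs per 1000000 UMIs of the same summed cells. Oviduct epithelial-like cells numbered 142, 1, 45 and 242, granulosa-like clusters of 188 and 81 cells came almost wholly from the doxorubicin library, and one of 125 cells from the AMH library. With 1 library per group no spread between animals was measured: a level carries an exact Poisson 95% interval and a ratio an exact binomial one, for counting error only, and no test of the treatments was made. Beyond counting, UMIs lay unevenly over cells, so these intervals are too narrow.

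Among the 6 classes compared, Cxcl12, the ligand of Cxcr4 and Ackr3, was highest in blood endothelial-like cells, followed by stroma-like cells. Its level in blood endothelial-like cells was 277, 216, 345 and 229 CPM. In stroma-like cells it was 127, 117, 92.0 and 126 CPM, with intervals of 123 to 131 in control and 88.5 to 95.6 in doxorubicin+AMH. The ranges of these classes did not overlap over the 4 libraries, but the stroma-like class pools unlike clusters. Its Clec3b/Dpt and Lrat/Tmeff2 clusters, described below, lay above blood endothelial-like cells in each library except doxorubicin+AMH. Mural smooth muscle-like cells followed with 71.9 to 84.9 CPM, theca-like cells with 11.1 to 19.5, and macrophage-like and granulosa-like cells stayed below 9 CPM. Because stroma-like cells were numerous, 61.1%, 66.3%, 60.4% and 56.1% of all Cxcl12 UMIs lay in them.

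A Cxcl12 UMI was seen in 49.1%, 52.7%, 43.7% and 47.2% of stroma-like cells, and in 23.0%, 22.6%, 19.96% and 23.4% once each cell was thinned to 2000 UMIs. Erythroid-like cells, which should lack the gene, gave 5.17%, 8.47%, 1.45% and 0% at lower depth (medians of 5321, 6553, 4918 and 3905 UMIs per cell), or 2.22%, 3.70%, 1.85% and 0% thinned. The shares in stroma-like cells stood above that background in each library.

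Cxcl14 was carried by mural smooth muscle-like and stroma-like cells. The mural level was 401, 621, 473 and 324 CPM and the stromal level 299, 236, 244 and 227 CPM, and the ranges of the 2 classes did not overlap. Macrophage-like cells had 31.6 to 48.6 CPM and theca-like cells 3.74 to 13.8. Stroma-like cells held 50.7% to 62.2% of its UMIs and mural cells 32.4% to 42.9%. The mural class was uneven. Without the 5 cells of most UMIs per library, the Acta2/Myh11 cluster had Cxcl14 at 498, 678, 488 and 393 CPM. The Rgs5/Ndufa4l2 cluster then had 3.07, 0, 0 and 5.13 CPM. A further mural cluster, led by Des and Synpo2, held 203, 20, 56 and 186 cells, so the make-up of the class differed between libraries.

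Ccl2 and Ccl7, the neighbouring monocyte attractants of chromosome 11, peaked in macrophage-like cells. Ccl2 was at 433, 745, 383 and 259 CPM there, against 17.8, 30.3, 19.9 and 14.7 CPM in stroma-like cells. Ccl7 was at 301, 301, 195 and 154 CPM in macrophage-like cells and at 5.06, 8.84, 3.47 and 6.87 CPM in stroma-like cells. Stroma-like cells outnumbered macrophages and still held 26.0% to 47.1% of Ccl2 UMIs.

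Cxcl1 and Cxcl10 were spread over most classes. Cxcl1 reached 63.5 to 131 CPM in blood endothelial-like cells, 53.2 to 133 in theca-like, 38.2 to 62.0 in granulosa-like and 41.3 to 58.8 in stroma-like cells. The blood endothelial-like range lay above the last 2 and overlapped that of theca-like cells. Cxcl10 reached 70.5 to 189 CPM in blood endothelial-like cells, 65.8 to 126 in macrophage-like cells and 43.8 to 59.7 in stroma-like cells. It stayed at 4.41 to 12.7 CPM in granulosa-like and mural cells. Surface epithelial-like cells, too few for the comparison of classes, held 19.8% of its UMIs in the doxorubicin library and 0.952% to 4.79% in the others.

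The receptors lay mostly outside the stroma. By level, Cxcr4 was at 64.0, 82.9, 69.7 and 70.7 CPM in macrophage-like cells and at 33.6, 30.0, 23.8 and 33.5 CPM in T or NK lymphocyte-like cells, where those levels rest on 6 to 17 UMIs. Of all Cxcr4 UMIs, macrophage-like cells held 26.5%, 32.1%, 45.1% and 40.5%, theca-like cells 32.4%, 30.6%, 12.3% and 5.95%, blood endothelial-like cells 5.20% to 17.8%, granulosa-like cells 5.68% to 16.0%, oviduct epithelial-like cells 0% to 22.3% and T or NK lymphocyte-like cells 3.06% to 6.17%. In stroma-like cells it was at 0.0722 to 0.339 CPM, or 0.0905% to 0.409% of cells with a UMI, while erythroid-like cells gave 1 of 58 cells in control and 0 of 59, 69 and 39 in the others. The stromal level was not separable from background at this depth. Ackr3 was at 53.8, 47.8, 49.6 and 40.3 CPM in blood endothelial-like cells, at 15.3 to 20.5 in granulosa-like cells and at 4.29 to 6.31 in stroma-like cells. Lymphatic endothelial-like cells (78, 39, 43 and 55) held 6.57%, 1.14%, 1.43% and 0.295% of Ackr3 UMIs. Blood endothelial-like cells (169, 122, 62 and 94) held 10.1%, 9.30%, 3.86% and 5.61%. By number of UMIs, granulosa-like cells held 65.1% to 77.6% of Ackr3. Within them, 2 clusters were highest: the one led by Fgd5 and Shroom3 with 34.6, 28.9, 42.0 and 36.0 CPM, and the one led by Cdh12 and Gatm with 30.8, 22.7, 50.7 and 41.0 CPM.

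**Figure D1:**
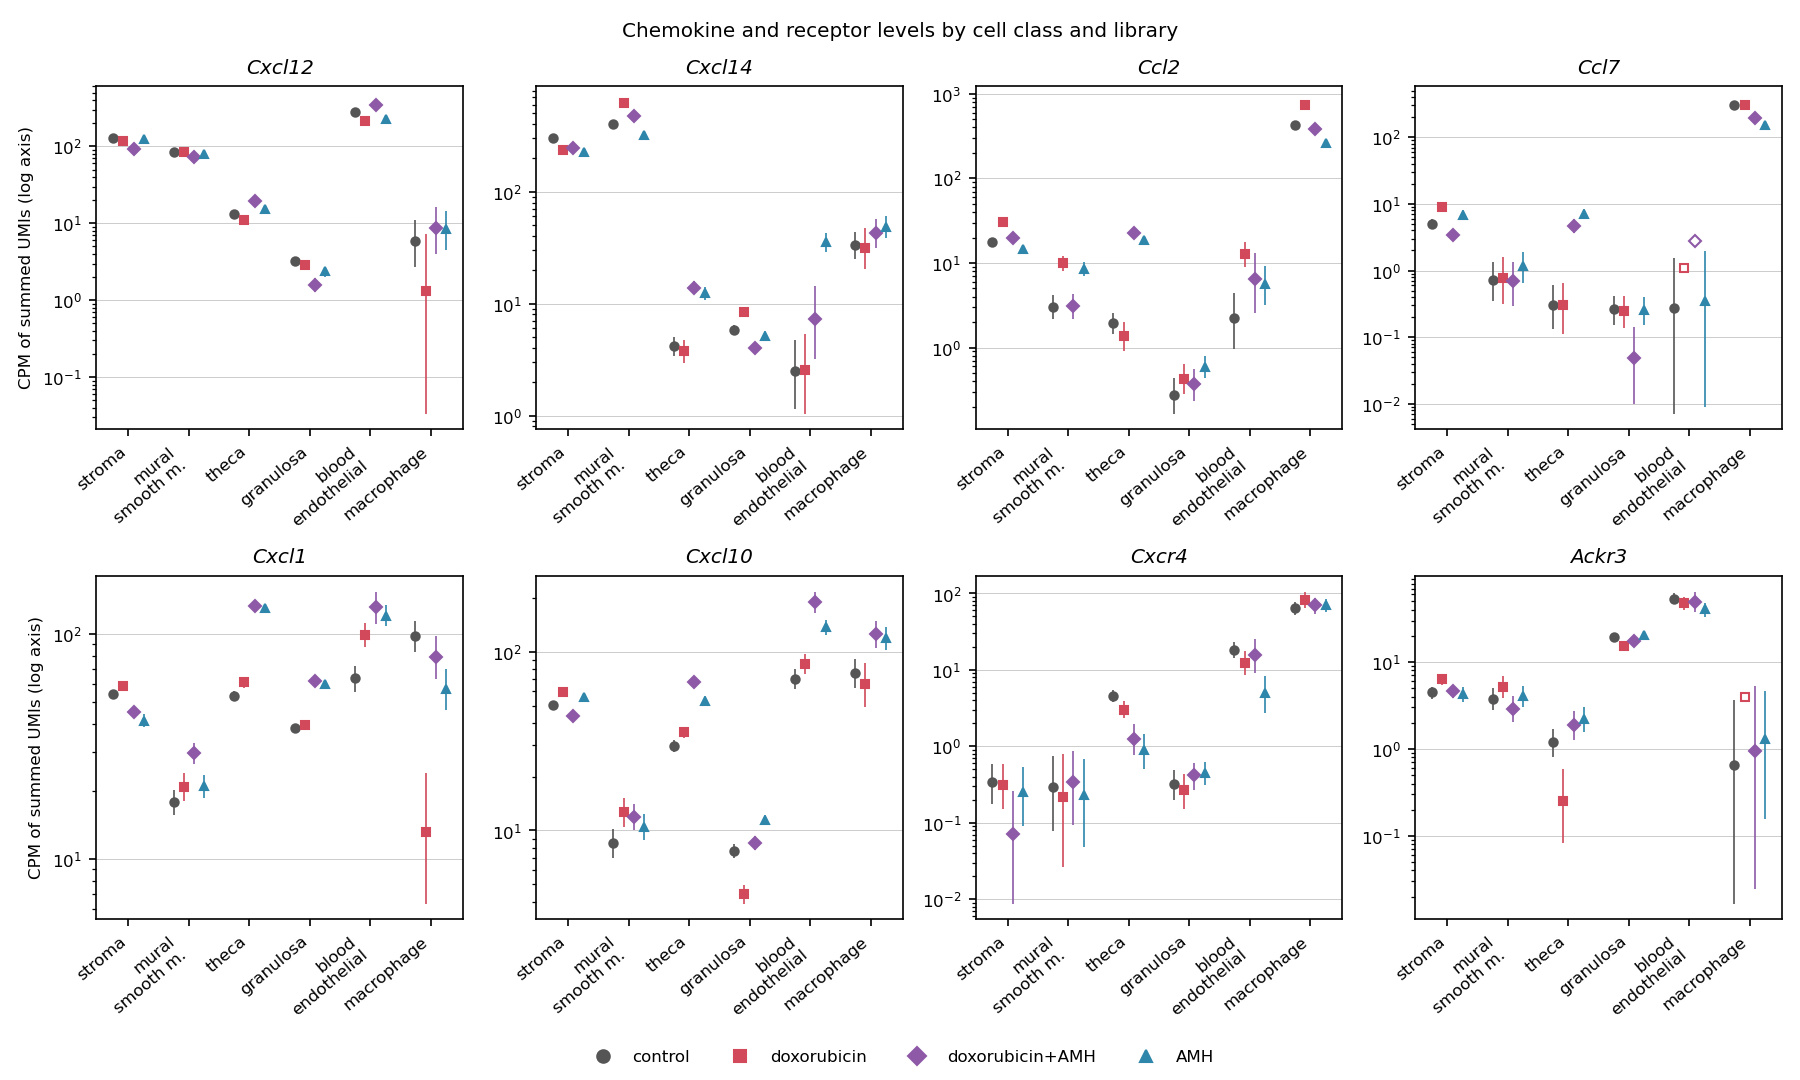
Level of each gene (CPM of summed UMIs, log axis) in 6 cell classes of the 4 libraries, with exact Poisson 95% intervals; an open marker stands for 0 UMIs and is drawn at the 3-count floor. Cxcl12 is highest in blood endothelial-like cells, Cxcl14 in mural and stroma-like cells, Ccl2, Ccl7 and Cxcr4 in macrophage-like cells, and Ackr3 in blood endothelial-like and granulosa-like cells.

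The other genes of the family mostly belonged to blood-derived cells. Of 29 other ligands in the matrices, 19 reached 20 CPM in some class and library, the highest being Ccl21a at 13234 CPM in lymphatic endothelial-like cells, Ccl5 at 4285 in T or NK lymphocyte-like cells and Pf4 at 1620 in macrophage-like cells. Of 21 other receptors, 10 reached 20 CPM, led by Cx3cr1 (532 CPM) and Ccr2 (212 CPM), both in macrophage-like cells. In stroma-like cells 3 other ligands and 1 other receptor passed the filter on low values, and none was past 2-fold in any contrast.

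Genes whose pattern was most like each member were sought among 12004 genes over 36 class-by-library sums of 11 classes, as Pearson's r of log2(CPM + 1); the sums share libraries, and the values are a description. Cxcl12 was most like Col4a1 and Igfbp7 (both 0.91), Cxcl14 most like Clmp (0.91) and Fgf2 (0.88), and Cxcl1 most like Kitl (0.88) and As3mt (0.85). Cxcl10 was most like Trim30d (0.85) and Mir155hg (0.82), Cxcr4 most like Lcp1 (0.95) and Casp1 (0.92), and Ackr3 most like Abca4 and Mpzl1 (both 0.90). Ccl2 and Ccl7 were most like each other (0.94). Cxcl1 with Cxcl10 gave 0.77, and Cxcl12 with its receptors gave -0.22 for Cxcr4 and 0.37 for Ackr3.

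Next in likeness to both Ccl2 (0.93) and Ccl7 (0.93) was Gm17268, whose exons overlap those of Ccl2 on the opposite strand. It had 393, 446, 384 and 437 UMIs, which is 25.5, 21.9, 26.1 and 32.2 per 100 UMIs of Ccl2, and 60.6% to 72.4% of them lay in cells with a Ccl2 UMI. Cxcl10 (chr5:92346638-92348889, - strand) likewise shares 133 identical bases with Art3, which runs the other way and had 666 to 1154 UMIs. Whether the counting used strand is not given in the sources used here, so reads of Ccl2 or Cxcl10 and of these partners may not be separated. No other member overlapped a gene or had a copy of at least 95% identity over 90 bases.

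Stroma-like cells fell into 5 clusters with distinct chemokine profiles, named here by their leading genes. The cluster led by Clec3b and Dpt (312, 214, 157 and 276 cells) had Cxcl12 at 406, 338, 300 and 350 CPM and Cxcl14 at 53.1, 25.1, 49.3 and 43.1 CPM. The cluster led by Lrat and Tmeff2 (847, 521, 518 and 567 cells) was high in both, with Cxcl12 at 314, 331, 301 and 332 CPM and Cxcl14 at 935, 770, 547 and 537 CPM. Its Cxcl12 was close to that of the Clec3b/Dpt cluster, and its Cxcl14 was higher in the control and doxorubicin libraries than in both libraries with AMH.

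The 3 other stromal clusters had less Cxcl12. The cluster led by Lamc3 carried Cxcl14 at 258 to 311 CPM with Cxcl12 at 35.5 to 45.7, and the Grin2b/Kcnk2 cluster carried Cxcl14 at 126 to 149 CPM with Cxcl12 at 71.1 to 84.3. The smallest cluster, led by Mxd3 and Hmmr, genes of dividing cells, had Cxcl12 at 8.84 to 21.9 CPM. Since each cell went to a cluster by genes other than these chemokines, the differences between clusters are not set by the chemokines themselves.

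Ccl2, Ccl7, Cxcl1, Cxcl10 and Ackr3 also had their highest stromal medians in the Clec3b/Dpt cluster. Its median level over the 4 libraries was 39.5 CPM for Ccl2, against 5.99 to 21.8 in the other 4 clusters, 189 CPM for Cxcl1, against 12.9 to 36.9, and 126 CPM for Cxcl10, against 22.7 to 92.0. Ackr3 had a median of 18.8 CPM there and 2.15 to 6.11 elsewhere in the stroma. Ccl7 had a median of 24.5 CPM against 1.74 to 4.59. For Ccl2 and Cxcl10 the ranges over the libraries overlapped those of other stromal clusters. In doxorubicin+AMH the Ccl2 of the Clec3b/Dpt cluster, at 17.0 CPM, was below the Lrat/Tmeff2 cluster (18.8 CPM or more) and the Mxd3/Hmmr cluster (35.7 CPM). Cxcl10 spanned 109 to 305 CPM in the Clec3b/Dpt cluster, against 68.3 to 119 in the Lrat/Tmeff2 cluster.

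**Figure D2:**
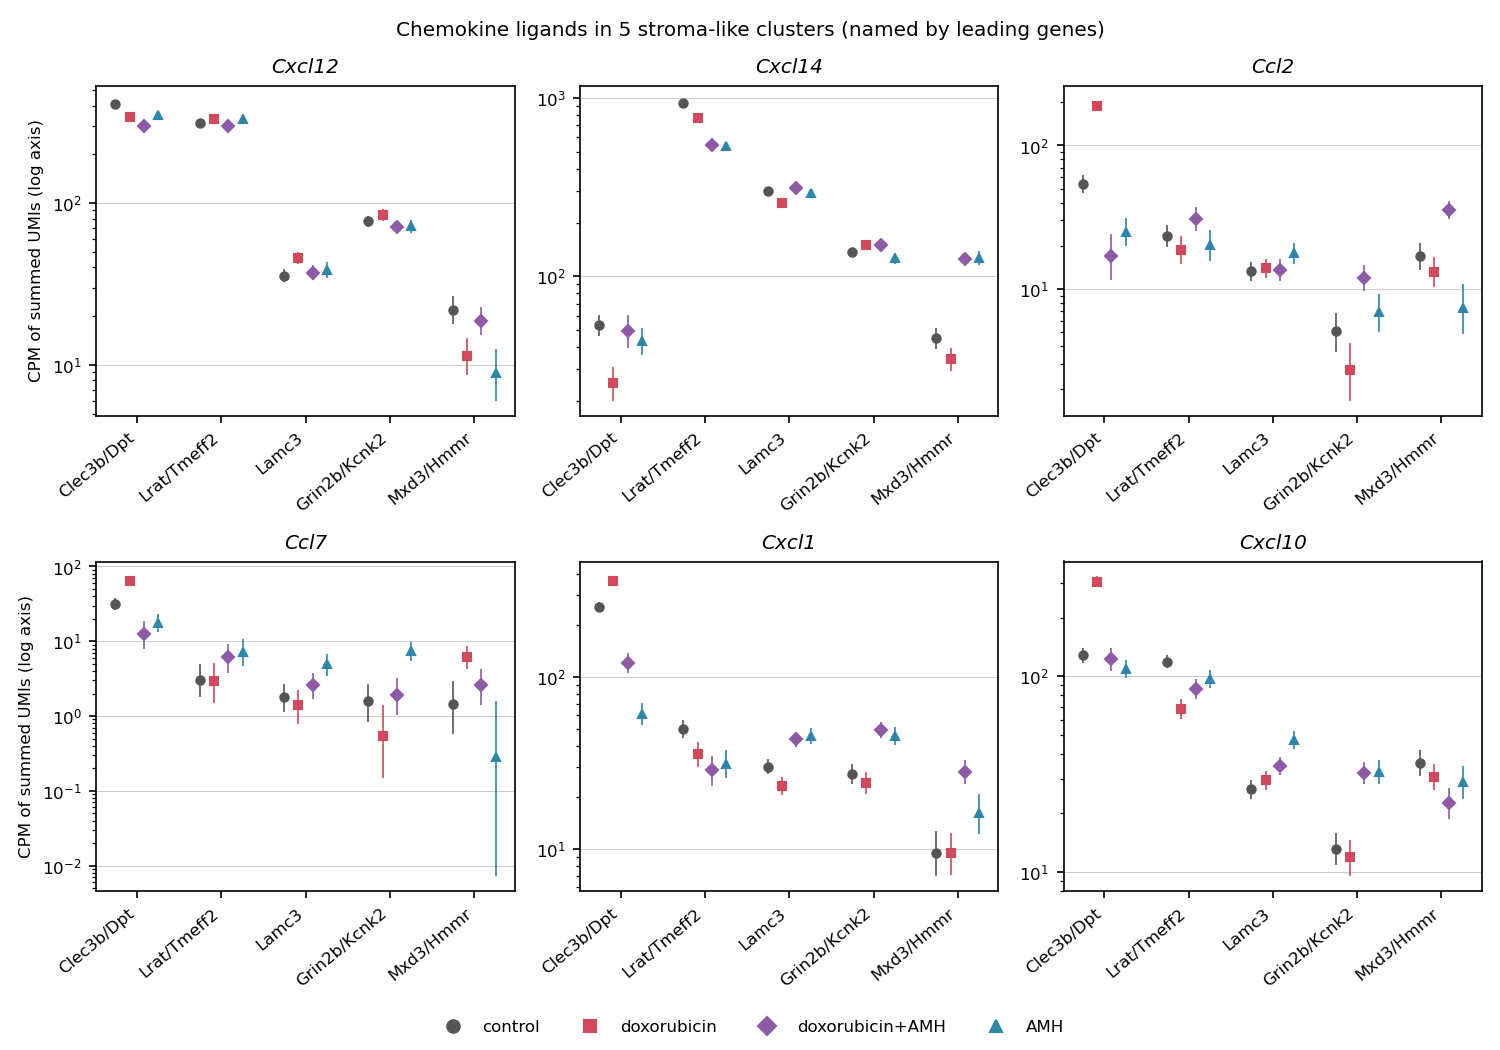
Level of the 6 ligands (CPM of summed UMIs, log axis) in the 5 stroma-like clusters of the 4 libraries, with exact Poisson 95% intervals. Cxcl12 is high in the Clec3b/Dpt and Lrat/Tmeff2 clusters at 300 to 406 CPM, Cxcl14 in the Lrat/Tmeff2 cluster at 537 to 935 CPM, and Ccl2 in the doxorubicin library of the Clec3b/Dpt cluster at 189 CPM.

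UMIs of Ccl2, Ccl7 and Cxcl10 came from few cells. In a whole library, 50% of the UMIs of Cxcl12 lay in 281 to 365 cells and of Cxcl14 in 240 to 324 cells, but those of Ccl2 lay in 22 to 43 and of Ccl7 in 12 to 22 cells. Cxcl10 took 61 to 82 cells while Cxcl1 took up to 216, nearer to Cxcl14. A difference in the summed level of Ccl2 or Ccl7 can therefore rest on a handful of cells, and several levels below are also given without the 5 cells of most UMIs per library, a check chosen after the values were seen.

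**Figure D3:**
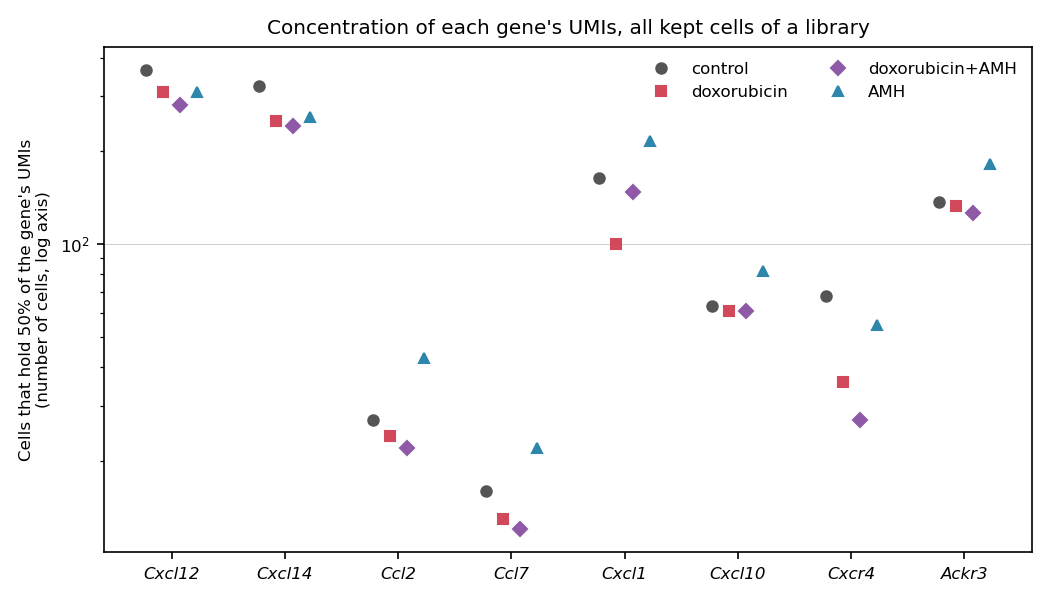
Number of cells (log axis) that together hold 50% of a gene's UMIs among all kept cells of each library. Cxcl12 and Cxcl14 lie at 240 or more cells in each library, Ccl2 and Ccl7 at 43 or fewer.

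Treatments were compared as ratios of CPM between libraries, with no pseudocount, for genes averaging 10 CPM or more over the libraries and with 20 UMIs or more in the contrast; a ratio of at least 2 or at most 0.5 is called past 2-fold. Doxorubicin / control and doxorubicin+AMH / AMH share no library, nor do AMH / control and doxorubicin+AMH / doxorubicin. Of 48 gene and class pairs (8 genes in 6 classes of at least 50 cells per library), 26 passed the filter for doxorubicin / control and 1 was past 2-fold, against 1.40% of all genes tested in those classes. For doxorubicin+AMH / AMH it was 2 of 27 (background 1.76%). For AMH / control it was 4 of 27 (2.80%), and for doxorubicin+AMH / doxorubicin 4 of 26 (3.24%). Ccl2 in theca-like cells, called in both contrasts of AMH, passed the filter only through the libraries with AMH, where it was high. Cxcl14 in blood endothelial-like cells, called for doxorubicin+AMH / AMH and for AMH / control, passed it only through the AMH library, where it was high. Together they are 2 of the 4 calls for AMH / control. All these counts are of 8 listed genes, and nothing is read from the gap to the background.

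In the stroma-like class as a whole, 5 of the 8 genes passed the filter (Cxcl12, Cxcl14, Ccl2, Cxcl1 and Cxcl10) and 0 were past 2-fold in any of the 4 contrasts. The background there was 0.262%, 0.284%, 0.219% and 0.437% of 9151 genes. The widest log2 ratio was that of Ccl2, doxorubicin / control, at 0.77 (0.62 to 0.91), with 0.44 (0.24 to 0.64) for doxorubicin+AMH / AMH. Without the 5 top cells Ccl2 was at 12.6, 22.7, 12.3 and 10.5 CPM, still highest with doxorubicin alone. Cxcl12 gave -0.12 and -0.45 in these contrasts, and Cxcl14 gave -0.34 and 0.11. In the same cells p53 targets, genes switched on after DNA damage, were past 2-fold higher for doxorubicin / control in 8 of 11 tested, and in 0 of 11 for doxorubicin+AMH / AMH.

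The doxorubicin library stood apart within the Clec3b/Dpt stromal cluster, where Ccl2, Ccl7 and Cxcl10 were highest in it. Ccl2 was at 53.9, 189, 17.0 and 25.1 CPM, from 205, 631, 30 and 78 UMIs. The log2 ratio of doxorubicin to control was 1.81 (1.58 to 2.04), that of doxorubicin+AMH to AMH was -0.56 (-1.22 to 0.06), and that of doxorubicin+AMH to doxorubicin was -3.47 (-4.05 to -2.95). Cells with a Ccl2 UMI made up 9.94%, 18.2%, 4.46% and 6.52% of the cluster (4.81%, 12.7%, 1.92% and 2.55% thinned), against 1.72%, 1.69%, 0% and 0% of erythroid-like cells.

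Few cells carried this level: 6, 21, 1 and 3 cells had 10 or more Ccl2 UMIs. In the doxorubicin+AMH library 1 cell held 22 of the 30 UMIs. Without the 5 cells of most UMIs per library, Ccl2 was at 26.4, 121, 1.17 and 9.18 CPM, in the same order of libraries.

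Cxcl10 followed the same order at the top and was spread over more cells. It was at 128, 305, 123 and 109 CPM, with log2 ratios of 1.25 (1.10 to 1.41) for doxorubicin / control and 0.17 (-0.08 to 0.42) for doxorubicin+AMH / AMH. Cells with a Cxcl10 UMI made up 25.6%, 47.7%, 24.8% and 23.9% of the cluster, or 11.5%, 29.2%, 10.3% and 10.6% thinned, against 0% to 2.90% of erythroid-like cells. Without its 5 top cells per library the level was 90.2, 254, 52.3 and 77.0 CPM.

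Ccl7 was at 31.3, 64.3, 12.5 and 17.7 CPM, a log2 ratio of 1.04 (0.71 to 1.38) for doxorubicin / control, which was 0.58 without the 5 top cells and then no longer past 2-fold. Cxcl1 was at 257, 364, 122 and 61.4 CPM, lower in both libraries with AMH than in both without. Its log2 ratios were -2.06 (-2.30 to -1.84) for AMH / control and -1.58 (-1.80 to -1.37) for doxorubicin+AMH / doxorubicin, and 0.51 and 0.99 for the doxorubicin contrasts.

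Cxcl12 differed little in this cluster, and its log2 ratios lay between -0.26 and -0.18 in the 4 contrasts. Cxcl14 was lowest in the doxorubicin library, with a log2 ratio to control of -1.08 (-1.46 to -0.70), a call lost with a pseudocount of 5 CPM and with median-of-ratios scaling. Ackr3 was at 14.2, 23.3, 24.9 and 10.6 CPM, with log2 ratios of 0.72 (0.20 to 1.25) without and 1.23 (0.55 to 1.93) with AMH for doxorubicin; the second was 0.94 with a pseudocount of 5 CPM. Cxcr4 had 3 UMIs in control, 1 in AMH and 0 elsewhere.

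In counts, 7 of the 8 genes passed the filter in the Clec3b/Dpt cluster. For doxorubicin / control 3 were past 2-fold higher (Ccl2, Ccl7, Cxcl10; background 2.88%) and 1 lower (Cxcl14; 3.61%). For doxorubicin+AMH / AMH 1 was higher (Ackr3; 2.16%). For AMH / control 2 were lower (Ccl2, Cxcl1; 0.994%), and for doxorubicin+AMH / doxorubicin 4 were lower (Ccl2, Ccl7, Cxcl1, Cxcl10; 3.97%). The AMH / control call of Ccl2 was lost with a pseudocount of 5 CPM and with equal weight per cell. Contrasts that share a library are not independent, and their values only stand side by side.

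**Figure D4:**
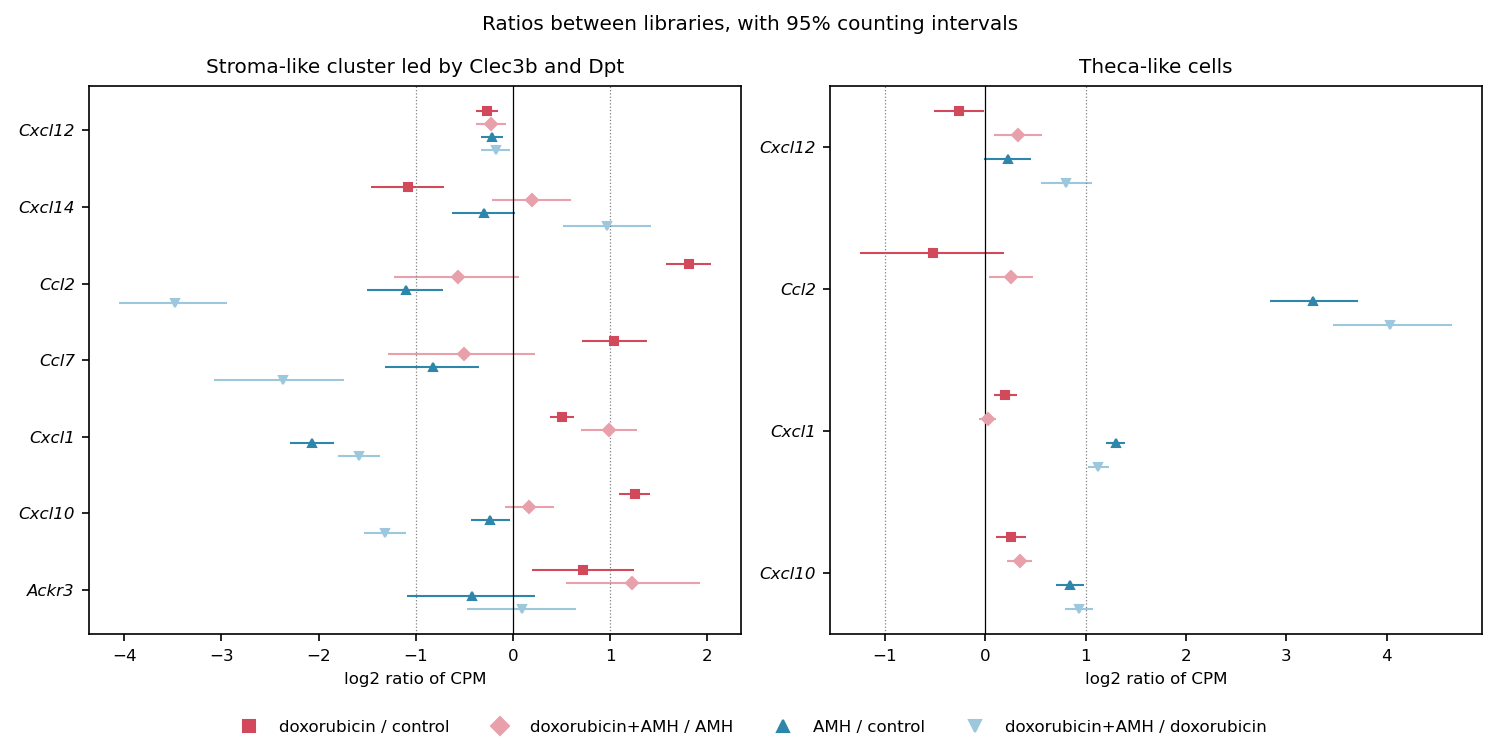
Log2 ratio of CPM between libraries, with 95% counting intervals, for the genes that passed the filter in the Clec3b/Dpt stromal cluster (left) and in theca-like cells (right); dotted lines mark 2-fold. On the left Ccl2, Ccl7 and Cxcl10 are higher for doxorubicin / control and lower for doxorubicin+AMH / doxorubicin; on the right Ccl2 and Cxcl1 are past 2-fold in both contrasts of AMH.

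Other gene lists in the Clec3b/Dpt cluster set the scale. All 12 tested p53 targets were past 2-fold higher for doxorubicin / control (median log2 3.33, against -0.09 over all genes tested), 0 of 12 for doxorubicin+AMH / AMH, and 11 of 12 were lower for doxorubicin+AMH / doxorubicin. Their summed level was 457, 3634, 631 and 476 CPM. Interferon response genes summed to 742, 1108, 784 and 553 CPM, with 6 of 14 past 2-fold higher for doxorubicin / control (Isg15, Ifit1, Ifit3, Irf7, Oasl2 and Gbp2; median log2 0.75) and 5 of 14 for doxorubicin+AMH / AMH (median 0.79).

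Of the NF-kB targets, genes of the inflammatory factor whose letters were searched above, 1 of 14 (Il6) was past 2-fold higher for doxorubicin / control, and 2 of 14 (Tnfaip2 and Il6) for doxorubicin+AMH / AMH. Their sum was 1568, 1982, 1264 and 1101 CPM, highest with doxorubicin and lower in both libraries with AMH, as Cxcl1 was, and their part in these levels was not tested. Genes of dissociation stress gave 0 of 19 for doxorubicin / control, with summed levels of 16719, 14332, 16612 and 17112 CPM. Among other chemokine ligands 5 were tested for doxorubicin / control and 1, Ccl11, was past 2-fold lower. Of 9 genes listed for the binding and handling of Cxcl12, among them Cxcl14, Cxcr4 and Ackr3, 6 were tested and 1 was lower, namely Cxcl14.

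Markers of macrophages, surface epithelium and T or NK lymphocytes were low in this cluster, and none of these 3 sums was highest in the doxorubicin library. The cluster also met the naming rule for mural smooth muscle-like cells, whose marker sum is not given here. The 8 macrophage markers summed to 20.2, 14.1, 17.0 and 24.1 CPM (8, 6, 5 and 7 of them above 0; Fcgr1 and Mrc1 at 0 in the doxorubicin library), against 11155 to 13494 CPM in macrophage-like cells. The 7 surface epithelial markers summed to 11.6, 6.58, 12.5 and 13.2 CPM. The 7 T or NK lymphocyte markers summed to 1.05, 0.598, 13.0 and 0.321 CPM. The stroma markers of the cluster themselves summed to 30436, 26614, 21346 and 25581 CPM.

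**Figure D5:**
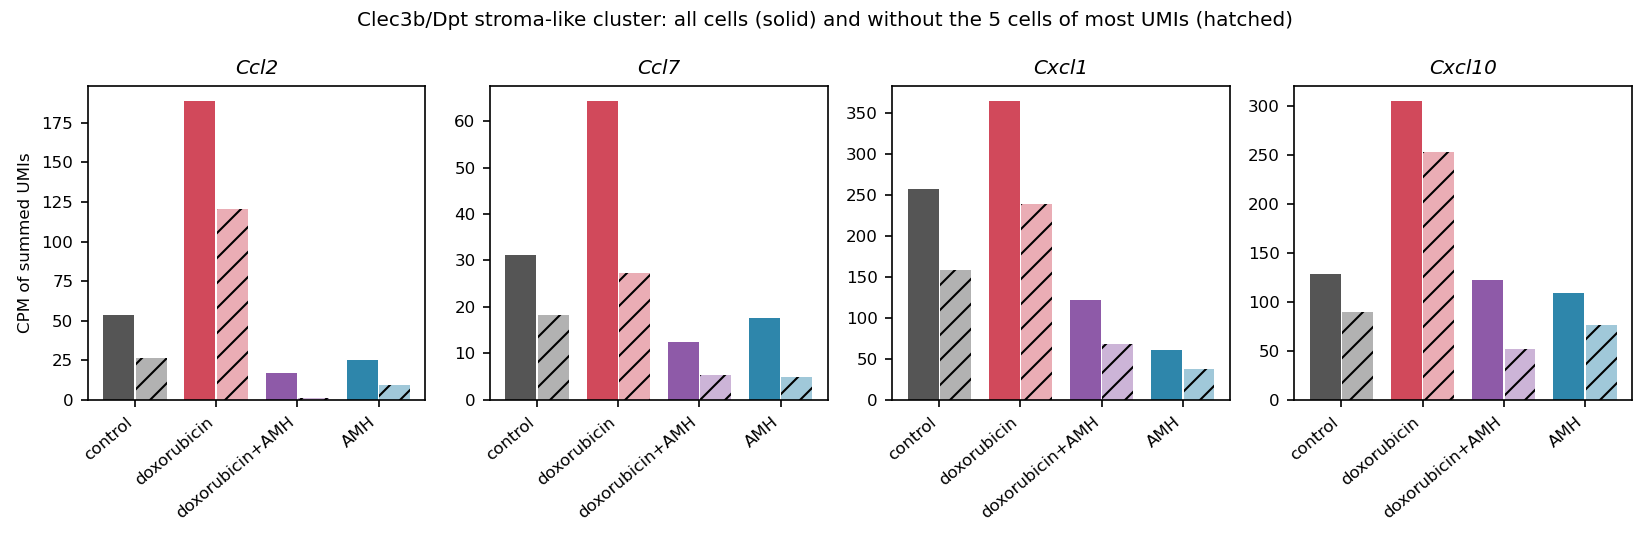
Level (CPM of summed UMIs) of 4 ligands in the Clec3b/Dpt stromal cluster of each library, over all its cells (solid bars) and without the 5 cells that hold most UMIs of the gene (hatched bars). For Ccl2 and Cxcl10 the doxorubicin library stays the highest, at 121 and 254 CPM without those cells.

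A surface epithelial-like cluster led by C3 and Slpi also had these ligands highest in the doxorubicin library, though it had too few cells for the comparison (41, 39, 2 and 34). Over control, doxorubicin and AMH, Ccl2 was at 42.8, 251 and 39.99 CPM there and Cxcl10 at 114, 659 and 144 CPM. Ccl7 was at 12.4, 51.1 and 12.1 CPM and Cxcl1 at 52.9, 149 and 39.99 CPM. The doxorubicin+AMH library had 2 such cells and gives no level for this cluster. The surface epithelial-like class as a whole numbered 107, 92, 37 and 65 cells. It held 2.92%, 14.8%, 0.272% and 2.73% of Ccl2 UMIs and 4.79%, 19.8%, 0.952% and 3.43% of Cxcl10 UMIs.

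Among dividing stromal cells (the Mxd3/Hmmr cluster of 165, 156, 150 and 98 cells), Cxcl14 was higher in both libraries with AMH. It was at 44.9, 34.2, 125 and 127 CPM, with no overlap between those with and without AMH, and log2 ratios of 1.499 (1.26 to 1.74) for AMH / control and 1.87 (1.63 to 2.11) for doxorubicin+AMH / doxorubicin. Ccl2 was at 17.0, 13.2, 35.7 and 7.41 CPM (4.91, 4.25, 9.92 and 1.20 without the 5 top cells), Cxcl1 at 9.52, 9.48, 28.2 and 16.3 CPM and Cxcl12 at 21.9, 11.3, 18.7 and 8.84 CPM. Of 5 genes tested there, 1 was past 2-fold higher for AMH / control (Cxcl14; background 0.845%) and 2 lower (Ccl2 and Cxcl12; 0.901%). For doxorubicin+AMH / doxorubicin 3 were higher (Cxcl14, Ccl2 and Cxcl1; 0.743%), and for doxorubicin+AMH / AMH 2 were higher (Ccl2 and Cxcl12; 0.394%). Cxcl1 passed the filter only through the libraries with AMH, where it was high. Cxcl12 stayed past 2-fold under 2 of 7 alternatives for doxorubicin+AMH / AMH and 5 of 7 for AMH / control, and Ccl2 under 4 of 7 for AMH / control. In the Grin2b/Kcnk2 cluster Cxcl10 was higher with AMH, at 13.2, 11.9, 32.2 and 32.5 CPM (log2 ratios 1.30 and 1.44). Cxcl1 there was at 27.4, 24.4, 49.4 and 45.7 CPM, with ratios of 0.74 and 1.02, the latter past 2-fold under 4 of 7 alternatives. Of 4 genes tested in it, 1 was past 2-fold higher for AMH / control (background 0.199%) and 2 for doxorubicin+AMH / doxorubicin (0.199%).

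Theca-like cells had more Cxcl1 and Ccl2 in both libraries with AMH. Cxcl1 was at 53.2, 61.0, 133 and 131 CPM, with log2 ratios of 1.30 (1.20 to 1.39) for AMH / control and 1.13 (1.02 to 1.23) for doxorubicin+AMH / doxorubicin. Ccl2 was at 1.96, 1.37, 22.3 and 18.7 CPM, with ratios of 3.26 (2.83 to 3.71) and 4.03 (3.46 to 4.65). The libraries with and without AMH did not overlap for either gene, and the doxorubicin contrasts were not past 2-fold.

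Cxcl10 was at 29.7, 35.4, 67.4 and 53.2 CPM in theca-like cells, with log2 ratios of 0.84 and 0.93 for AMH, short of 2-fold. Of 4 genes that passed the filter, 2 were past 2-fold higher for AMH / control (background 3.41%) and 2 for doxorubicin+AMH / doxorubicin (3.00%). Ccl2 passed the filter only through the libraries with AMH, where it was high, so its count is no support by itself. Without the 5 top cells Cxcl1 was at 46.6, 50.5, 112 and 120 CPM and Ccl2 at 0.695, 0.571, 14.8 and 14.1 CPM. Cxcl10 was then at 21.0, 24.0, 53.7 and 44.1 CPM, which is past 2-fold in both contrasts of AMH, so its call depends on this step. Among genes below the filter, Cxcl14 was at 4.18, 3.74, 13.8 and 12.4 CPM, Ccl7 at 0.307, 0.304, 4.68 and 7.15 CPM, and Cxcr4 at 4.60, 3.04, 1.26 and 0.887 CPM.

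Different clusters made up the theca-like class in the libraries with and without AMH. The cluster led by Cyp17a1 and Cyp11a1, enzymes of androgen and pregnenolone synthesis, held 656, 413, 40 and 40 cells, and the one led by Prss35 and Abhd2 held 31, 30, 573 and 754. The 8 theca markers summed to 15333, 14708, 5933 and 4911 CPM in the class, and the 9 stroma markers to 1162, 1208, 2085 and 2077 CPM. In the Cyp17a1/Cyp11a1 cluster, Cxcl1 was at 62.0, 71.0, 140 and 70.6 CPM and Ccl2 at 1.15, 0.968, 1.28 and 0 CPM. In the Prss35/Abhd2 cluster, Cxcl1 was at 42.1, 36.5, 179 and 160 CPM and Ccl2 at 88.9, 0, 31.8 and 25.1 CPM, the first from 19 UMIs in 2 cells of control.

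The third theca-like cluster, led by Sct and Ryr2, was about evenly present (157, 158, 137 and 123 cells), but it was poorly recovered under other clustering: its best match shared 0.2701 of cells (Jaccard index) with doublets kept and 0.3563 with a mitochondrial limit of 10%. Its Cxcl1 was at 8.12, 23.4, 19.6 and 45.7 CPM, a log2 ratio of 2.49 (1.95 to 3.07) for AMH / control but -0.25 (-0.70 to 0.19) for doxorubicin+AMH / doxorubicin. Its Ccl2 was at 1.67, 3.12, 2.77 and 1.58 CPM, all at or below 3.12 CPM, whereas the class as a whole differed past 2-fold. The higher Ccl2 of the class and the change of its clusters cannot be told apart in these libraries.

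Genes of dissociation stress also summed higher in theca-like cells with AMH, at 11472, 12626, 15752 and 15907 CPM; 5 of 19 were past 2-fold for AMH / control and 3 of 19 for doxorubicin+AMH / doxorubicin. Past 2-fold in both were Ier3 (77.2, 78.5, 179 and 167 CPM) and Atf3 (133, 148, 299 and 333 CPM), early response genes. The p53 target Cdkn1a was past 2-fold in both contrasts of doxorubicin, at 8.67, 59.2, 35.3 and 16.6 CPM. Of 11 NF-kB targets, 2 (Tnfaip3 and Vcam1) were higher for AMH / control, against 3.41% of all genes tested. The NF-kB list summed to 944, 1063, 1392 and 1281 CPM, higher in both libraries with AMH, as Cxcl1 was. Interferon response genes summed to 1276, 1378, 928 and 797 CPM, with 0 of 9 past 2-fold in either contrast of AMH. The 8 macrophage markers summed to 19.0, 16.1, 19.7 and 18.0 CPM. The part of the stress genes and of the NF-kB targets in the Cxcl1 difference was not tested.

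Cxcl1 in macrophage-like cells (186, 90, 90 and 183) was lowest in the doxorubicin library. It was at 98.0, 13.2, 79.2 and 57.0 CPM, from 150, 10, 83 and 88 UMIs, a log2 ratio of -2.90 (-3.99 to -1.98) for doxorubicin / control. This was the only gene of 6 tested past 2-fold in that contrast (background 3.65% lower), and for doxorubicin+AMH / AMH it was 0 of 6 (5.10% in either direction). Between 62.7% and 100% of these UMIs lay in 5 cells of a library, and without them the levels were 38.4, 0, 3.15 and 18.5 CPM.

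Ccl2 in macrophage-like cells gave log2 ratios of 0.78 (0.62 to 0.95) for doxorubicin / control and 0.57 (0.36 to 0.77) for doxorubicin+AMH / AMH, both short of 2-fold. Without the 5 top cells its levels were 280.0, 493, 174 and 181 CPM, so doxorubicin stayed above control but doxorubicin+AMH was no longer above AMH. Cxcr4 differed little, with ratios of 0.37 (-0.11 to 0.84) and -0.02 (-0.47 to 0.42). Among the other ligands, Ccl24, an eosinophil attractant, was past 2-fold in both contrasts of doxorubicin, at 43.1, 170, 136 and 35.0 CPM. Cxcl9, an interferon-gamma-induced ligand, was past 2-fold in both contrasts of AMH, at 69.3, 13.2, 342 and 254 CPM. From the other lists, the p53 target Cdkn1a was at 286, 902, 468 and 195 CPM and Csf1, a macrophage growth factor, at 7.84, 22.4, 15.3 and 6.48 CPM, both past 2-fold in both contrasts of doxorubicin. Ifit1 (18.3, 32.9, 9.54 and 8.43 CPM) and Bbc3 (18.3, 29.0, 12.4 and 8.43 CPM) were past 2-fold lower in both contrasts of AMH. Csf1 was under 10 CPM in both libraries without doxorubicin and Ifit1 in both with AMH, so each passed the filter only through the libraries where it was high.

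In blood endothelial-like cells (169, 122, 62 and 94), Cxcr4 was lowest with AMH alone, at 18.4, 12.5, 15.6 and 4.94 CPM, from 66, 34, 17 and 14 UMIs. Its log2 ratio was -1.90 (-2.84 to -1.05) for AMH / control and 1.66 (0.55 to 2.79) for doxorubicin+AMH / AMH, the latter -0.041 without the 5 top cells. Cxcl12 there stayed within 2-fold between any libraries contrasted, at 216 to 345 CPM. Cxcl10, at 70.5, 85.6, 189 and 137 CPM, was past 2-fold for doxorubicin+AMH / doxorubicin (1.14), but 1 cell held 110 of the 206 UMIs of doxorubicin+AMH, and the ratio was -0.20 without the 5 top cells. Cxcl14, past 2-fold in both contrasts of the AMH library, was at 2.51, 2.57, 7.35 and 35.3 CPM, from 9, 7, 8 and 100 UMIs. It passed the filter only through the AMH library, and without the 5 top cells it was at 0.877, 0, 0 and 11.05 CPM. Both of these Cxcl14 calls were lost with doublets kept and with cells gated by marker score, where the AMH / control ratio was as low as 0.25.

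In granulosa-like cells as a class 2 of the 8 genes passed the filter (Cxcl1 and Ackr3), and 0 of 2 were past 2-fold in any contrast, against 0.102%, 0.102%, 0.951% and 1.30% of all genes tested there. Their Cxcl1 was at 38.2, 39.5, 62.0 and 59.9 CPM, higher in both libraries with AMH (log2 ratios 0.65 and 0.65). The 123 cells of the AMH library in the cluster led by Chchd10 and Casp6, which had Cxcl1 first by fold, held 70 of its 4517 granulosa-like Cxcl1 UMIs.  In the Cdh12/Gatm cluster 3 genes were tested: 2 were past 2-fold higher for AMH / control (Cxcl1 and Cxcl10; background 1.58%) and 3 for doxorubicin+AMH / doxorubicin (Cxcl1, Cxcl10 and Ackr3; 1.37%). For both doxorubicin / control (0.271%) and doxorubicin+AMH / AMH (0.316%) 1 was lower, namely Cxcl10 at -1.27 and -1.02. Cxcl1 was at 28.7, 18.5, 73.3 and 61.3 CPM there and Cxcl10 at 21.2, 8.80, 31.4 and 63.5 CPM. The AMH / control ratio of Cxcl10 was 0.35 with equal weight per cell, its doxorubicin / control ratio turned to 0.53 without the 5 top cells, and its doxorubicin+AMH / AMH ratio stayed past 2-fold under 4 of 7 alternatives. Ackr3 gave a log2 ratio of 1.16 (0.91 to 1.42) for doxorubicin+AMH / doxorubicin, and 0.89 with a mitochondrial limit of 10%. In this cluster too, the libraries with and without AMH did not overlap for any of the 3 genes.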

How the data were processed

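Matrices of UMI counts per gene and cell were deposited by the authors, not normalized, from Cell Ranger 7.0.0 per the file headers; mm10, R 4.2.0 and Seurat 4.1.0 appear in the submitters' processing notes with no role given. Cells needed 1000 UMIs or more, of which no more than 20% mitochondrial. Scrublet (scanpy 1.11.5) marked 0 doublets by its own threshold, so the highest scores were removed at 0.8% per 1000 cells (328 to 590 cells per library). Joint Leiden clustering (leidenalg 0.10.2, resolution 1, 30 principal components, 20 neighbours, 2000 variable genes without the members, the gene lists and mitochondrial genes) gave clusters, named where at least 3 markers and 60% of a list stood 1 log2 unit above the median cluster, thresholds set after values were seen. UMIs were summed per class and library (scipy 1.17.1 for exact intervals), checked on simulated data. The text names all 8 members, the 2 genes most like each, list genes past 2-fold in the same direction in both contrasts of a pair that shares no library, and the highest other ligands and receptors; list genes named in single clusters were chosen after their values were seen. The members and lists were chosen with earlier results of these data known. Alternatives were scaling, pseudocount, doublets, mitochondrial limit, weighting, gating, clustering, the filter and the removal of top cells.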

Additional observations from a re-analysis of the deposited data

Results flagged for a closer look

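In 5 cases the doxorubicin ratio pointed one way without AMH and the other way with AMH, both counting intervals excluded 0 and at least 1 ratio was past 2-fold; each group is 1 library, and the difference was not tested. Values are differences of log2 ratios, doxorubicin+AMH / AMH minus doxorubicin / control. Cxcl1 in macrophage-like cells differed by 3.37 (-2.90 without AMH and 0.47 with it), but without the 5 top cells both were negative: the doxorubicin library had 0 CPM against 38.4 in control, and the ratio with AMH was -2.56. Ccl2 in the Rgs5/Ndufa4l2 mural cluster differed by -4.37 (1.67 and -2.70) and without those cells both libraries with doxorubicin had 0 CPM, against 4.95 in control and 10.0 in AMH.

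The Sct/Ryr2 theca-like cluster was not matched under 3 other clusterings, so its values have fewer alternatives. Cxcl12 in it differed by 2.14 (-1.36 and 0.79), and by opposite signs also without the top cells (-1.67 and 0.96). In the same cluster Cxcl1 differed by -2.74 (1.52 and -1.22), with 1.14 and -1.23 without the top cells. Cxcl12 in the Mxd3/Hmmr stromal cluster differed by 2.03 (-0.95 and 1.08), with -0.76 and 0.52 without the top cells.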

How the results depend on the processing

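Counts of gene and class pairs past 2-fold moved most without the filter on low values: 5 in place of 1 for doxorubicin / control, 5 in place of 2 for doxorubicin+AMH / AMH, 10 in place of 4 for AMH / control and 15 in place of 4 for doxorubicin+AMH / doxorubicin. With equal weight per cell they were 4, 7 and 7 for doxorubicin / control, AMH / control and doxorubicin+AMH / doxorubicin. With each cell gated by marker score doxorubicin / control had 4 and doxorubicin+AMH / AMH had 0. With doublets kept, doxorubicin / control had 2 and doxorubicin+AMH / doxorubicin had 7; without the 5 top cells, 2 for doxorubicin / control and 7 for AMH / control; with each library clustered alone, 2 for doxorubicin / control. The cause was not tested.

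Of 53 named log2 ratios, 53 kept their sign with median-of-ratios scaling (51 still past 2-fold), with a pseudocount of 5 CPM (39) and with equal weight per cell (42); 45 of 49 kept it without the 5 top cells (41 past 2-fold; 4 more had too few UMIs left for a ratio, and 4 of the 49 are bounds against 3 counts in place of 0), 47 of 48 with doublets kept (43) and 10 of 11 with cell gating (7), which gives no value for clusters. Reversed without the 5 top cells were Ccl2 in the Rgs5/Ndufa4l2 cluster for doxorubicin / control (a bound of -0.43, with 0 UMIs left in doxorubicin), Cxcl10 in blood endothelial-like cells (-0.20) for doxorubicin+AMH / doxorubicin, Cxcl10 in the Cdh12/Gatm cluster for doxorubicin / control (0.53), and Cxcr4 in blood endothelial-like cells for doxorubicin+AMH / AMH (-0.041). Also reversed, both for doxorubicin+AMH / AMH, were Cxcl14 in the Rgs5/Ndufa4l2 cluster with doublets kept (1.04) and in blood endothelial-like cells with gating (0.22). The largest shift of the median of all genes by scaling was 0.12 log2. No paired analysis was possible because the labels give the libraries no shared replicate numbers. Depth limits Cxcr4 in stroma and any gene below 10 CPM.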
